A study of Rattus norvegicus with 5 samples.

Results

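The expression of 8 imprinted growth genes, Meg3, Dlk1, Mest, Peg3, Plagl1, Grb10, Ndn and Sgce, was compared between the mandibular condylar cartilage (MCC) and the femoral condylar cartilage (FCC) of the rat. The 8 genes were chosen by name, as imprinted genes with a part in growth, with earlier results of these arrays known, so the measured values had a part in the choice and every value below is a description. A gene was represented by each probe set whose only gene symbol in the platform's annotation was its own. This gave 10 probe sets of 31042 on the array after controls were set aside, for 7 of the 8 genes, among 14217 genes with such a probe set. Peg3 had no probe set listed under its symbol and its expression is not analysed here. Each of the other genes had 1 probe set, except Meg3 with 2 and Grb10 with 3.

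All groups were wild type Sprague-Dawley rats, male and 5 weeks old, with no treatment, and the labels do not state how many animals were used. Cells were cut from 7 µm frozen sections by laser-capture microdissection (LCM). The fibrous zone (FZ), the proliferative zone (PZ), the mature zone (MZ) and the hypertrophic zone (HZ) of the MCC follow each other from the joint surface to the bone, and the FCC sample, the study's control, held chondrocytes of the middle and deep zones. Per the labels, lysates of 30 sections were pooled for each group, whereas the study's methods state a larger number for FZ. After 2 cycles of linear amplification the RNA of each of the 5 groups was placed on 1 Affymetrix array for the rat genome. The differences thus have no replicates behind them, no test could be run, and the number of arrays limits the precision.

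In genomic imprinting the copy of a gene from 1 parent is silenced, so that transcripts come mainly from the copy of the other parent. DNA methylation laid down in the germ line distinguishes the parental copies. Many imprinted genes act on growth before and after birth, and several of them are known to fall in activity together as organs approach their adult size. Meg3, Grb10 and H19 are mainly expressed from the maternal copy, with tissue exceptions for Grb10, and Dlk1, Mest, Peg3, Plagl1, Ndn, Sgce and Igf2 from the paternal copy. The arrays measured both copies together and do not tell them apart.

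Dlk1 and Meg3 lie beside each other in 1 imprinted cluster and are expressed from opposite parental copies. The stretches before their annotated starts are shown because Meg3 had the largest differences between the arrays and Dlk1 is its neighbour. That of Peg3 is shown because it shares a run of 8 letters with that of Meg3. Each is the 250 bases before the start in the direction of transcription, from RefSeq on build GRCr8, at chr6:134273806-134274055 (plus strand) for Meg3, chr6:134192347-134192596 (plus strand) for Dlk1 and chr1:76130744-76130993 (plus strand) for Peg3. Capitals mark the letters TGACGTCA, the full cyclic AMP response element (CRE), which reads the same on both strands, and TATAAA, the TATA box, searched on both strands.
Meg3: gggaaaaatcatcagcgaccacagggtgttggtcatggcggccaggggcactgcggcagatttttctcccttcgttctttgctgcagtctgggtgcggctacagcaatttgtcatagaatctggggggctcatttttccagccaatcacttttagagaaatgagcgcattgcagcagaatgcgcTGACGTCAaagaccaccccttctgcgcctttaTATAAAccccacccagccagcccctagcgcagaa
Dlk1: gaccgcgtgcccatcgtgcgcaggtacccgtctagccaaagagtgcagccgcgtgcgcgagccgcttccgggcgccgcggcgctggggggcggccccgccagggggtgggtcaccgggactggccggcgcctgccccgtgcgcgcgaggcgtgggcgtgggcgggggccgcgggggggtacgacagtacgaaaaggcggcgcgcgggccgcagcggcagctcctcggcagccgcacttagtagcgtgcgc
Peg3: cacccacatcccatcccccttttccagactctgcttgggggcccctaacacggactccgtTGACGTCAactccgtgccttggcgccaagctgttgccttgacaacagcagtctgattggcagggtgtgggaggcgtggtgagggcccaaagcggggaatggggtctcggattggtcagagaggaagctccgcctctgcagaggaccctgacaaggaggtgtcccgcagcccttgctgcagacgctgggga

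In the Meg3 window the CRE letters begin 66 bases before the start and the TATA letters 34 bases before it. In the Peg3 window the CRE letters begin 190 bases before the start. Both letter runs were picked after the sequences had been read. The CRE letters occurred in 531 of all 33469 windows of this length, which is 1.59%, and in 0 of the windows of 48 other imprinted genes. TATA letters occurred in 12.9% of all windows and, among the 8 genes, in that of Meg3 alone. A match is a description of the letters and not of a bound factor.

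The 8 windows also differed in CG dinucleotides, the sites at which DNA is methylated. The window of Dlk1 held 41 and was 78.0% G and C, and 0.980% of all windows held as many CG. That of Grb10 held 38, that of Plagl1 23, that of Sgce 20 and that of Mest 15. The windows of Peg3, with 11, and of Meg3 and Ndn, with 10 each, held the fewest of the 8. Over the 8 windows the median was 17.5, beside a median of 11.5 over the 48 other imprinted genes and of 5 over all windows. The plot of CG counts shows that each of the 8 windows lay above the median of all windows, and that the 2 neighbours Dlk1 and Meg3 lay far apart in it.

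**Figure D1:**
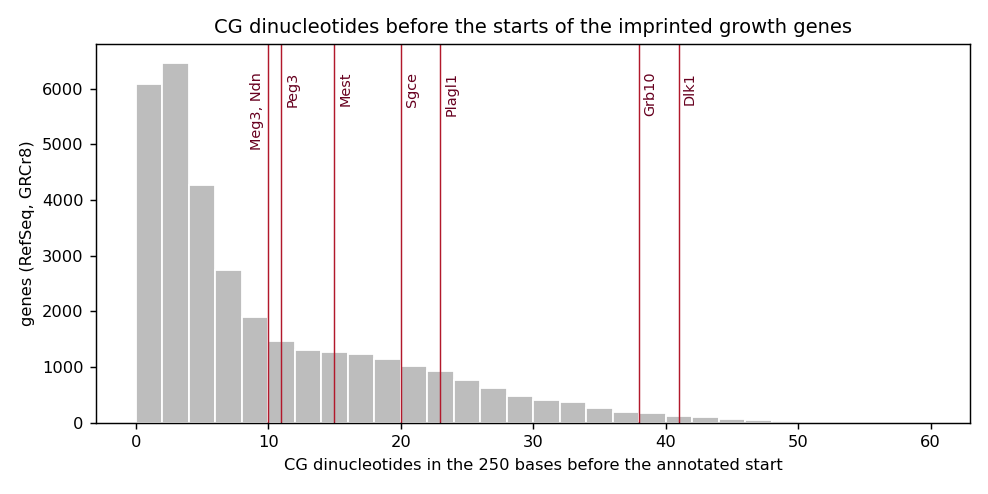
Histogram of the number of CG dinucleotides in the 250 bases before the annotated start (horizontal axis) over 33469 windows of RefSeq genes on GRCr8 (vertical axis, number of genes), with red lines at the windows of the 8 imprinted growth genes. All 8 lines lie at 10 or more, and Dlk1 lies furthest right at 41.

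The deposited values are log2 values of each probe set relative to its median over the 5 arrays. They show how the arrays differ and not how much of a transcript was present. A value at 0 in several arrays can belong to a gene that was not detected there as well as to a gene with equal levels, and values of different genes cannot be ranked by level. In captured tissue, fewer cells of a type and less RNA per cell cannot be told apart.

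In FCC, 9 of the 10 probe sets lay above their mean over the 4 MCC zones, a count for which no share over all probe sets was computed. The median difference was 1.04 on the log2 scale, beside -0.01 over all probe sets. At least 2 higher in FCC were 2 probe sets, both of Meg3, where 1.26% of all probe sets were, and at least 1 higher were 6, where 4.34% were. FCC was the highest of the 5 arrays for 8 of the 10, beside 24.1% of all probe sets, and HZ was the lowest for 7, beside 21.1%. In Meg3 (1377008_at) and in Sgce, HZ was the lowest by only 0.0023 and 0.043. Within the MCC, 4 of the 10, those of Meg3, Mest and Ndn, lay by 1 or more above the deep pair (MZ and HZ) in the superficial pair of zones (FZ and PZ, both as means), where 2.08% of all probe sets did, and 0 lay by 2 or more above it, where 0.541% did. The median difference between the superficial and the deep pair of zones was 0.46, beside 0.02 over all probe sets.

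These counts depend on how the arrays are scaled. The 18 hybridization control probe sets, which read foreign transcripts put into every sample, had means of 0.50 in FCC, -0.15 in FZ, 0.44 in PZ, then -0.02 in MZ and -0.03 in HZ. Shifting the arrays to equal means of these controls changes the median of all probe sets by -0.44 for FCC against the MCC zones, by -0.17 for superficial against deep zones and by up to 0.65 in a pairwise comparison, that of FZ against FCC. After the shift 7 of the 10 probe sets lay above the mean of the zones in FCC, with a median of 0.60, beside -0.45 over all probe sets. Those of Meg3, 2 probe sets, remained at least 1 higher in FCC, where 2.38% of all probe sets did. That of Mest, 1 probe set, remained at least 1 higher in the superficial zones, where 1.56% did. FCC was then the highest array for 4 of the 10, the probe sets of Meg3, Dlk1 and Plagl1, beside 5.68% of all, and HZ the lowest for 3, those of Plagl1, Ndn and 1 of Grb10, beside 4.43%. Unless the shift is named, values are the deposited ones and so relative to the medians of all probe sets.

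**Figure D2:**
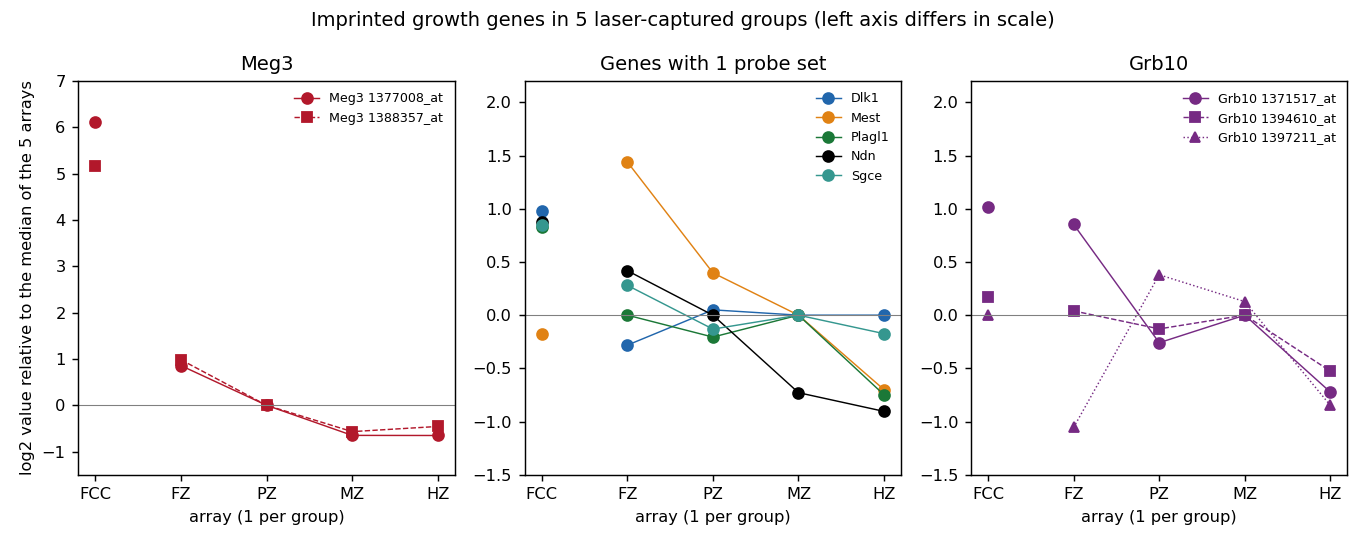
Log2 values relative to the median of the 5 arrays (vertical axis) of the 10 probe sets in FCC and in the 4 MCC zones ordered from the surface to the bone (horizontal axis, 1 array per group), with 1 marker per value and lines joining the MCC zones. Meg3 stands at 5.16 and 6.12 in FCC on a wider axis, Mest is highest in FZ, and the 3 probe sets of Grb10 part in FZ.

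Meg3, a long noncoding RNA that restrains cell growth in several tissues, differed most between the cartilages of the 7 genes measured. Its probe set 1377008_at had the values 6.12 in FCC, 0.86 in FZ, 0.00 in PZ, then -0.65 in MZ and -0.65 in HZ. Its probe set 1388357_at had 5.16 in FCC, 0.98 in FZ, 0.00 in PZ, then -0.57 in MZ and -0.46 in HZ. FCC was far above every MCC zone by both, and from the surface to the bone the zones formed a smaller gradient, in which PZ of 1388357_at fell to the value of HZ under the shift (-0.44 and -0.43).

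By 1377008_at, FCC was 38.3-fold above FZ, 69.3-fold above PZ and 109-fold above both MZ and HZ, and by 1388357_at it was 18.1-fold, 35.7-fold, 52.9-fold and 49.0-fold above FZ, PZ, MZ and HZ. Against the mean of the zones the log2 differences were 6.23 and 5.17, which are 74.9-fold and 36.0-fold, with a mean of 5.70 and an SD of 0.75 between the 2 probe sets. These ranked 6 and 34 among the 31042 probe sets. The 2 probe sets differed by 0.96 in FCC and by at most 0.20 in any MCC zone, so that the fold in FCC depended on the probe set and the gradient within the MCC did not.

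Within the MCC, Meg3 was 1.51 and 1.44 higher in FZ than in HZ on the log2 scale, and the superficial pair was 1.08 and 1.0 above the deep pair. With no replicates, the typical SD between probe sets of the same gene stood as a rough measure of spread. It is the median over 4525 genes with several probe sets. It is no replicate error, so a gap beyond it does not establish a difference between groups. For FZ against HZ it was 0.17, beside an SD of 0.89 between the probe sets of Grb10 and of 0.05 between those of Meg3. This typical SD was 0.30 for FZ against PZ, 0.31 for PZ against MZ and 0.12 for MZ against HZ. The steps of Meg3 from FZ to PZ (0.86 and 0.98) and from PZ to MZ (0.65 and 0.57) were larger than that spread, but under the shift those from PZ to MZ were 0.19 and 0.11 and within it. MZ and HZ differed by 0.00 and by 0.11, which was within it.

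Dlk1, a membrane protein with epidermal growth factor repeats that holds back the differentiation of fat and cartilage precursors, had 0.98 in FCC, -0.28 in FZ, 0.05 in PZ, then 0.00 in MZ and 0.00 in HZ (1369151_at). It was 2.05-fold above the mean of the MCC zones in FCC, a log2 difference of 1.03 with rank 1285. PZ, MZ and HZ lay within 0.05 of each other, inside the spread between probe sets. Among the zones FZ was the lowest as deposited and PZ under the shift, at -0.39. The difference between superficial and deep zones was -0.12, whereas that of its neighbour Meg3 was above 0.

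Mest, a protein of the hydrolase fold in the endoplasmic reticulum, linked to the expansion of fat tissue, was not highest in FCC. Its values were -0.18 in FCC, 1.44 in FZ, 0.40 in PZ, then 0.00 in MZ and -0.70 in HZ (1371731_at). It was highest in FZ and decreased through the zones towards the bone, with steps of 1.04, 0.40 and 0.70, each beyond the spread between probe sets. Under the shift PZ, at -0.04, came below MZ, at 0.02.

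FZ exceeded HZ by 2.14, which is 4.41-fold, and FCC by 1.62. In FCC, Mest lay between MZ and HZ, with a gap to MZ of 0.18 that was within the spread, and under the shift FCC and HZ stood at -0.68 and -0.67. The difference of FCC from the mean of the MCC zones was -0.46 and rested on FZ, since it was -0.08 without that array. For superficial against deep zones Mest had the largest difference of the 10 probe sets, 1.27 or 2.41-fold, with rank 400 of 31042.

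Plagl1, a zinc finger transcription factor that halts the cell cycle and acts on other imprinted genes, had 0.83 in FCC, 0.00 in FZ, -0.21 in PZ, then 0.00 in MZ and -0.75 in HZ (1387122_at). FCC was 2.09-fold above the mean of the zones, a log2 difference of 1.07. HZ was 1.58 below FCC and stood under the other zones, whereas FZ, MZ and PZ did not differ beyond the spread between probe sets. Both statements depend on the scaling, since under the shift PZ (-0.64) stood beside HZ (-0.72) and below FZ (0.15) and MZ (0.02) by more than the spread. The superficial and deep zones were 0.27 apart.

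Peg3 encodes another zinc finger protein, which represses transcription. Its sequence above is the only measure given for it.

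Ndn, a member of the MAGE family that restrains growth and binds E2F factors, had 0.88 in FCC, 0.42 in FZ, 0.00 in PZ, then -0.73 in MZ and -0.90 in HZ (1371947_at). As deposited, all 4 gaps between neighbouring arrays exceeded the spread between probe sets. FCC was 2.26-fold above the mean of the zones, a log2 difference of 1.18, and the superficial zones were 2.04-fold above the deep zones, a log2 difference of 1.03. After the shift by the hybridization controls FZ (0.57), and not FCC (0.38), was the highest array for Ndn, and the gaps of 0.19 between these and of 0.27 between PZ and MZ were within the spread.

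Grb10, an adaptor that binds the insulin and IGF1 receptors and dampens their signal, was measured by 3 probe sets that did not agree. Probe set 1371517_at had 1.01 in FCC, 0.85 in FZ, -0.26 in PZ, then 0.00 in MZ and -0.72 in HZ. Probe set 1394610_at had 0.17 in FCC, 0.04 in FZ, -0.13 in PZ, then 0.00 in MZ and -0.53 in HZ. Probe set 1397211_at had 0.00 in FCC, -1.05 in FZ, 0.38 in PZ, then 0.13 in MZ and -0.85 in HZ. They parted most in FZ, where the first was 0.85 and the last -1.05, and the difference of FZ from PZ ran from -1.43 to 1.11. FCC was above FZ by 0.16 in 1371517_at and 0.13 in 1394610_at, and under the shift FZ was above FCC by 0.49 and 0.52.

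All 3 Grb10 probe sets were lower in HZ than in MZ, by 0.53 to 0.98. They were lower in HZ than in PZ as well, by 0.40 to 1.23, although under the shift 1394610_at was lower in PZ (-0.57) than in HZ (-0.499). FCC exceeded the mean of the MCC zones by 1.04, 0.32 and 0.35, with a mean of 0.57 and an SD of 0.41 between probe sets, and the last 2 turned to -0.12 and -0.09 when the arrays were shifted by the hybridization controls. Superficial zones exceeded deep zones by 0.66, 0.22 and 0.02, of which the last turned to -0.15 under that shift. Which transcripts of Grb10 each probe set reads was not tested.

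Sgce, a sarcoglycan of the cell membrane, had 0.84 in FCC, 0.28 in FZ, -0.13 in PZ, then 0.00 in MZ and -0.17 in HZ (1389971_at). FCC was 1.80-fold above the mean of the zones, a log2 difference of 0.85, and 1.02 above HZ. As deposited PZ did not differ from MZ or HZ beyond the spread between probe sets. MZ and HZ differed by 0.17, beyond their spread of 0.12. Under the shift FZ (0.43) came above FCC (0.35), and PZ (-0.57) became the lowest array, below HZ (-0.15) and MZ (0.02) by more than the spread. The superficial zones lay 0.16 above the deep zones, a difference that turned to -0.01 under the shift by the hybridization controls.

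The study counted a log2 difference of 2 as differential expression in its 10 pairwise comparisons, which share arrays. Against FCC, 2 of the 10 probe sets, both of Meg3 and both lower in the MCC, passed it in FZ, where 2.13% of all probe sets passed, in PZ (2.43%), in MZ (2.47%) and in HZ (3.55%). Under the shift Mest, 2.27 higher in FZ than in FCC and so opposite to Meg3, passed in FZ too, which made 3 of 10 beside 3.57% of all. Between zones, Mest in FZ against HZ was the only pass, 1 of 10 beside 1.25% of all. The count was 0 of 10 for FZ against PZ (0.609% of all), FZ against MZ (0.854%), PZ against MZ (1.11%), PZ against HZ (1.74%) and MZ against HZ (0.158%). The other 5 genes, Dlk1, Plagl1, Grb10, Ndn and Sgce, passed in none of the 10.

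Whatever their size, all 10 differences between HZ and FCC were negative as deposited, from -6.77 to -0.52, and 9 were under the shift. All 10 probe sets were also higher in PZ than in HZ, by 0.04 to 1.23, but under the shift 6 were. For these counts by sign no share over all probe sets was computed. By 1 or more, 6 of the 10 were lower in HZ than in FCC, beside 5.71% of all probe sets. By 1 or more, 2 were higher in PZ than in HZ, beside 3.81%. The median of the 10 was -1.30 for HZ against FCC, -0.91 for MZ, -0.95 for PZ and -0.70 for FZ. Between zones it was 1.04 for FZ against HZ, 0.57 for FZ against MZ and 0.41 for FZ against PZ, and it was 0.50 for PZ against HZ, 0.35 for MZ against HZ and 0.15 for PZ against MZ. The medians over all probe sets lay between -0.05 and 0.05 in the 10 comparisons. Under the shift the median of the 10 was -0.77 for HZ against FCC, where that of all probe sets was 0.52, and 1.16 for FZ against HZ, where that of all was 0.12. It was -0.05 for FZ against FCC (0.65 over all), 0.04 for PZ against HZ (-0.42 over all) and -0.31 for PZ against MZ (-0.44 over all).

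**Figure D3:**
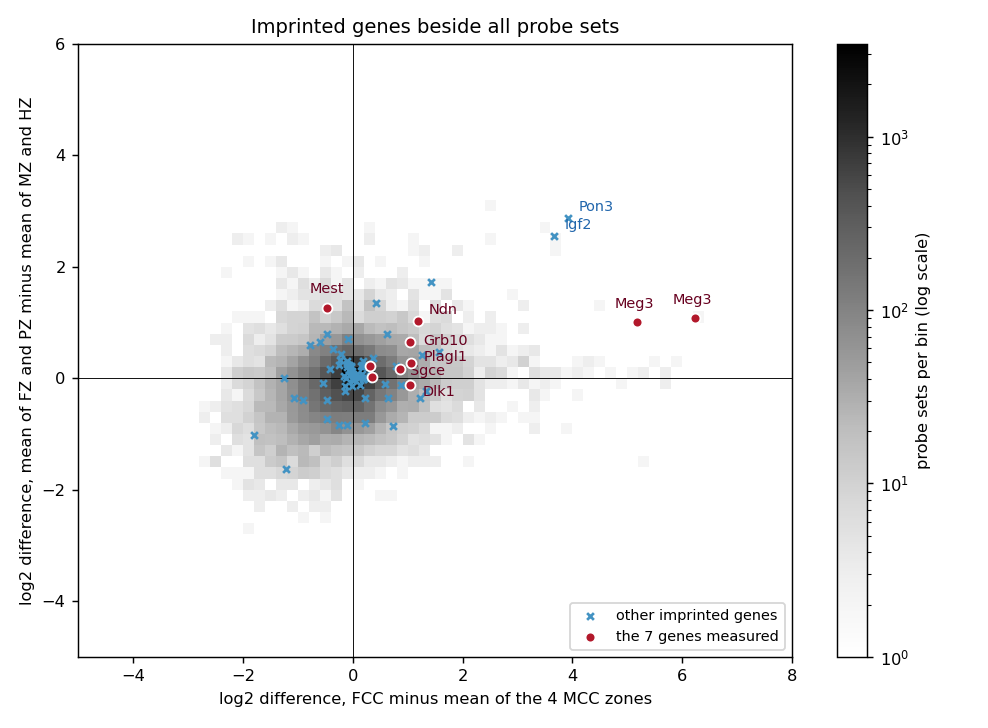
Log2 difference between FCC and the mean of the 4 MCC zones (horizontal axis) and between the superficial and the deep pair of zones (vertical axis), with all 31042 probe sets as grey bins on a log colour scale, the 10 probe sets of the growth genes as red points and other imprinted genes as blue crosses. Meg3 lies at 5.17 and 6.23 on the horizontal axis, Mest has the highest vertical position of the red points at 1.27, and most blue crosses lie near 0 on both axes.

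The genes whose 5 values were nearest to those of Meg3 and Mest were found by the Euclidean distance between the values of the 5 arrays after centring each probe set on its mean. For Meg3 (1377008_at) the nearest other genes were Gdf10, a secreted factor of the TGF-beta superfamily, at 0.944, Chad, a cartilage matrix protein, at 0.954, and Cdh22, a cadherin, at 1.20. The second Meg3 probe set lay at 0.956, so that Gdf10 and Chad were as near to the first as it was. Gdf10 had 5.94 in FCC and 0.57 in FZ, and Chad had 5.79 and 0.64.

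For Mest the nearest were Hspb1, a small heat shock protein, at 0.283, Dclk1, a microtubule-associated kinase, at 0.309, and Acss2, an acetyl-CoA synthetase, at 0.348. Hspb1 had 1.69 in FZ and -0.58 in HZ, beside 1.44 and -0.70 for Mest. Since these genes were picked for their likeness, their nearness to Meg3 and Mest holds by construction. The order of the lower arrays was not always shared. Gdf10 was lowest in PZ (-0.17, beside 0.00 in HZ), and Cdh22 was lowest in MZ (-0.61, beside -0.05 in HZ).

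The other imprinted genes measured had medians close to those of all probe sets, but larger shares at least 1 higher in FCC and in the superficial zones. There were 71 probe sets of 43 further genes listed as imprinted, whose imprinting in these tissues was not measured. Of these probe sets, 7 were at least 1 higher and 4 at least 1 lower in FCC than in the MCC zones. Their median was -0.01, beside -0.01 over all probe sets. Over all probe sets 4.34% were at least 1 higher and 5.32% at least 1 lower. For superficial against deep zones 4 of the 71 were at least 1 higher and 2 at least 1 lower, where 2.08% and 3.23% of all probe sets were, with a median of 0.07, beside 0.02 over all. These shares are the background of each list count below, for FCC against the MCC zones and for superficial against deep zones in this order.

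Among those near the growth genes on their chromosomes, 17 genes with 26 probe sets, 3 were at least 1 higher and 3 at least 1 lower in FCC (4.34% and 5.32% of all probe sets), and 2 and 2 in the superficial zones (2.08% and 3.23%). Their medians were 0.10 and 0.02. Pon3, a paraoxonase gene beside Sgce, had 2.65 in FCC, 0.36 in FZ, 0.00 in PZ, then -2.45 in MZ and -2.94 in HZ (1384544_at). FCC exceeded the mean of the zones by 3.91, and Pon3 was 2.88 higher in the superficial than in the deep zones, well beyond Sgce itself with 0.85 and 0.16. In the cluster of Meg3 and Dlk1, Dio3, a deiodinase that inactivates thyroid hormone, differed by 0.12 between FCC and the zones, and Peg10, the neighbour of Sgce, by -0.08. These 2 were picked after their values were seen.

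Among the 26 imprinted genes elsewhere, with 45 probe sets, 4 were at least 1 higher and 1 at least 1 lower in FCC (4.34% and 5.32% of all), and 2 and 0 in the superficial zones (2.08% and 3.23%), with medians of -0.04 and 0.11. Igf2, the fetal growth factor, had 3.69 in FCC, 2.61 in FZ, 0.00 in PZ, then -0.70 in MZ and -1.78 in HZ by 1367571_a_at, with a difference of 3.66 between FCC and the mean of the zones and of 2.55 between superficial and deep zones. Its other 3 probe sets lay between -0.08 and 0.02 for FCC against the zones. The difference in Igf2 thus rests on 1 probe set, and values near 0 in the others can also come from a transcript they did not detect. H19, the noncoding RNA beside Igf2, had 0.79 in FCC and -3.0 in HZ, and Cdkn1c, an inhibitor of the cell cycle, had 0.86 in FCC and -1.87 in HZ. Both were picked after their values were seen, and in both HZ was the lowest array, as in 7 of the 10 probe sets above.

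**Figure D4:**
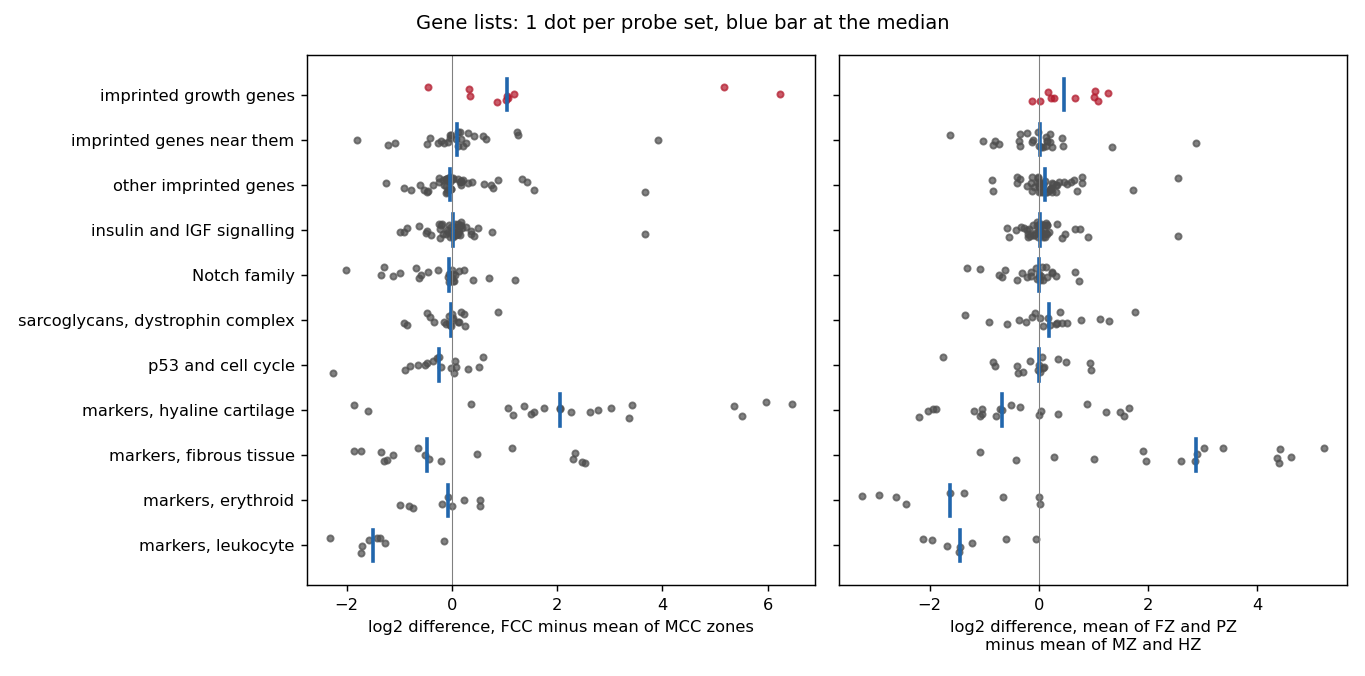
Log2 differences of single probe sets (1 dot each) in gene lists, for FCC minus the mean of the MCC zones (left) and the mean of FZ and PZ minus the mean of MZ and HZ (right), with blue bars at list medians and the growth genes in red. The median of the growth genes is 1.04 on the left and 0.46 on the right, and the lists of other imprinted genes and of signalling partners have medians between -0.25 and 0.19.

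The partners of these genes in signalling were listed too. Among 12 genes named as network partners of imprinted growth genes, with 20 probe sets that the imprinted lists partly hold, 3 were at least 1 higher and 0 lower in FCC (4.34% and 5.32% of all), with a median of 0.02, and 2 were higher and 1 lower in the superficial zones (2.08% and 3.23%), with a median of 0.15. In insulin and IGF receptor signalling, the pathway that Grb10 restrains, 1 of 43 probe sets of 18 genes was at least 1 higher in each of the 2 comparisons, that of Igf2 above, and 0 were lower. Both medians were 0.02. Igf1r, a receptor that Grb10 binds, had values between -0.63 and 0.59 over its probe sets and arrays, and was picked after its values were seen.

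For Dlk1, a relative of the Notch ligands, 25 probe sets of 17 Notch family genes and partners were measured. In FCC 1 was at least 1 higher and 4 at least 1 lower (4.34% and 5.32% of all), with a median of -0.05, and in the superficial zones 0 were higher and 2 lower (2.08% and 3.23%), with a median of -0.00. The difference of FCC from the mean of the zones in Notch1, a receptor, was -2.01 by 1390426_at and -1.29 by 1371491_at, the opposite direction from Dlk1.

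Around Sgce, 20 probe sets of 7 genes of the sarcoglycan and dystrophin complex held 0 at least 1 higher and 0 at least 1 lower in FCC (4.34% and 5.32% of all), with a median of -0.03, and 3 higher and 1 lower in the superficial zones (2.08% and 3.23%), with a median of 0.19. Sspn, the sarcospan of that complex, had the largest difference, 1.76 between superficial and deep zones by 1388866_at. Among 17 probe sets of 11 genes of cell cycle and p53 function around Plagl1, Ndn and Peg3, 0 were at least 1 higher and 1 lower in FCC (4.34% and 5.32% of all), with a median of -0.25, and 0 were higher and 1 lower in the superficial zones (2.08% and 3.23%), with a median of 0.01. That probe set was of E2f2, an activator of the cell cycle, with differences of -2.26 between FCC and the zones and -1.76 between superficial and deep zones. The other E2F genes of the list differed by less, E2f1 by -0.51 and -0.15 and E2f4 by -0.29 and -0.83. E2f2 had 1.26 in MZ and 2.23 in HZ, where the blood markers below were higher too. Its directions were opposite to those of Ndn, and a link to Ndn or to blood cells was not tested.

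Markers of cell types moved with the same comparisons. Of 21 probe sets of 14 hyaline cartilage genes, 18 exceeded the mean of the zones by 1 or more in FCC, where 4.34% of all probe sets did, with a median of 2.06 and the largest differences in Mia (6.47) and Chad (5.96), as Meg3 was. Of 16 probe sets of 12 genes of fibrous tissue, 13 exceeded the deep zones by 1 or more in the superficial zones, where 2.08% did, with a median of 2.88 and the largest differences in Dpt (5.23) and Col14a1 (4.62), as Meg3, Mest and Ndn were. For hypertrophy, 5 of 7 probe sets were at least 1 lower in the superficial zones, with a median of -1.39. Going the other way, 2 hyaline cartilage probe sets, of Col2a1 (-1.86) and Col11a1 (-1.58), were at least 1 lower in FCC, beside 5.32% of all. In the superficial zones 1 fibrous tissue probe set, of Col1a1 (-1.07), was at least 1 lower, beside 3.23%. The majority directions are those of the labelled tissues. In the other comparison of each list the members were more evenly divided. For superficial against deep zones 4 hyaline cartilage probe sets were at least 1 higher and 8 at least 1 lower, with a median of -0.68. For FCC against the zones 5 fibrous tissue probe sets were at least 1 higher and 6 at least 1 lower, with a median of -0.47, and 1 hypertrophy probe set was higher and 2 were lower, with a median of -0.55. Their part in the differences of the growth genes was not tested.

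Blood markers ran towards the bone. Of 9 erythroid probe sets 6 were at least 1 lower in the superficial than in the deep zones, where 3.23% of all probe sets were, with a median of -1.62, and of 8 leukocyte probe sets 6 were lower there, with a median of -1.45, and 7 were at least 1 lower in FCC, where 5.32% of all were, with a median of -1.5. The erythroid median in FCC was -0.08. Endothelial genes, 6 probe sets, had medians of -0.90 in the superficial zones and -0.63 in FCC, and 3 of them were at least 1 lower in the superficial zones. The growth genes that were lower in HZ were therefore lower where blood cell markers were higher, and the part of the latter was not tested. Genes of adipocytes, cells in which Dlk1 and Mest are known to act, held 0 of 11 probe sets at least 1 apart between FCC and the zones, with a median of 0.00. In the superficial zones their median was -0.21, and 1 of the 11, of Pparg (-1.17), was at least 1 lower. Smooth muscle, skeletal muscle and osteoblast genes had medians of -0.14, -0.00 and -0.26 in FCC and of 0.31, 0.06 and -0.37 in the superficial zones. Of the 9 smooth muscle probe sets 1 was at least 1 higher and 3 at least 1 lower in FCC, and 2 were at least 1 higher in the superficial zones. Of the 6 skeletal muscle probe sets 1 was at least 1 higher in FCC, and of the 5 osteoblast probe sets 1 was at least 1 lower in the superficial zones.

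Signals that bear on RNA integrity also differed between the arrays. The 5′ and 3′ probe sets of beta-actin, whose difference falls when transcripts are shortened, differed by 1.24 in FCC relative to their medians and by -0.24 to 0.14 in the MCC zones, while those of GAPDH differed by 1.36 in PZ and by -0.21 to 0.27 in the other arrays. FCC also held 248 probe sets at least 2 above all other arrays, Meg3 with both among them, beside 0 to 15 in each MCC zone. Since each group had 1 array, the array, its RNA and the tissue cannot be told apart for any of these values.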

How the data were processed

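Expression was measured in 5 LCM samples, 1 array each. The authors deposited log2 values, and the submitters' processing notes name RMA and MAS5, the latter for background correction, without versions. Quantile normalization makes the distributions of arrays equal, and subtraction of the median of each probe set removes its level. The study's filter on low intensities needs levels and was not applied. The genome build was not given in the sources used here, so coordinates are those of RefSeq alone. Probe sets were named from the platform annotation, in which 20826 have 1 symbol, 436 several and 9780 are not listed. Differences were computed in numpy 2.4.6 and pandas 2.3.3 under Python 3.11.15 and plotted in matplotlib 3.10.9, and the functions were tested on simulated data. With 1 array per group no p-value is given. The genes, the lists and their markers were chosen with earlier results of these data known. Named were the 8 genes, the 3 nearest genes where the range reached 2, list genes differing by at least 2 or else the largest, and 2 markers of the main lists. Alternatives were median centring, shifting by 18 hybridization controls, thresholds of 1 and 1.4, gene means, each zone left out, and other backgrounds.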

Additional observations from a re-analysis of the deposited data

How the results depend on the processing

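The median of all probe sets was already 0 in each array, so centring the arrays on their medians could change nothing and tests nothing. Gene means moved the median for FCC against the MCC zones from 1.04 to 1.03. They moved that for superficial against deep zones from 0.46 to 0.30. Shifting the arrays by the hybridization controls moved the median of the 10 probe sets for FCC against the MCC zones from 1.04 to 0.60, the number at least 1 higher in FCC from 6 to 2, that at least 1 higher in the superficial zones from 4 to 1, that highest in FCC from 8 to 4 and that lowest in HZ from 7 to 3. The shift reversed 4 differences, Grb10 in FCC (1394610_at to -0.12 and 1397211_at to -0.090) and, between superficial and deep zones, Grb10 1397211_at (to -0.15) and Sgce (to -0.0074). It moved the median for superficial against deep zones to 0.30, and Meg3 in FCC against the zones to 5.79 and 4.73, and 3 probe sets, Mest among them, passed 2 for FZ against FCC. With a threshold of 1 in place of 2, the probe sets past it numbered, against FCC, 6 for HZ (13.6% of all probe sets), 5 for FZ (9.69%), 4 for PZ (12.6%) and 4 for MZ (11.3%), and between zones 3 for FZ against PZ (7.24%), 5 for FZ against MZ (4.83%), 5 for FZ against HZ (6.27%) and 2 for PZ against HZ (11.2%). At 1 the count was 0 for PZ against MZ (9.23%) and for MZ against HZ (1.13%). With 1.4 they numbered, against FCC, 5 for HZ (7.69%), 3 for FZ (5.01%), 3 for MZ (5.91%) and 2 for PZ (6.20%). Between zones they numbered 1 for FZ against PZ (2.54%), 3 for FZ against MZ (2.12%) and 4 for FZ against HZ (2.93%). The count at 1.4 was 0 for PZ against MZ (3.83%), PZ against HZ (5.23%) and MZ against HZ (0.412%). Leaving out each MCC zone in turn gave medians from 0.86 to 1.05 for FCC against the rest, and moved Meg3 to 6.55 and 5.50, Grb10 1371517_at to 1.34 and Mest to -0.08 without FZ, and Mest to -0.79 without HZ. The background of 1 symbol or 1 value per gene stayed within 1.5 times of that over all probe sets. No paired analysis was possible because each group has 1 array. The filter on the lowest intensities was not run, since the values hold no level. Signal over background is not known, so a small difference of a dim probe set cannot be told from noise.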
